A study of Mus musculus with 3 samples.

Results

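The genes described here encode 10 subunits of the integrins that bind extracellular matrix: the alpha subunits Itga1, Itga5, Itga7, Itga8, Itga11 and Itgav, and the beta subunits Itgb1, Itgb3, Itgb5 and Itgb8. They were chosen by gene symbol from the 32285 genes in the files. All 10 had UMIs (unique molecular identifiers, which count captured RNA molecules) in every library. Their summed UMIs were 20531 in the WT CD library, 23332 in the WT HFD library and 24101 in the KO HFD library.

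Mononuclear cells of the costal diaphragm, the muscular part of the sheet that drives breathing, were profiled by droplet single-cell RNA-Seq that captured the 3′ end of transcripts. Male mice ate chow until 2 months of age, and for 6 further months stayed on it (control diet) or were moved to the high-fat diet. The WT CD library came from wild-type C57Bl/6J mice on control diet, and the WT HFD library from wild-type C57Bl/6J mice on a high-fat diet with 45% of calories from lipid. The KO HFD library came from mice of the strain B6.129S2-Thbs1tm1Hyn/J, which carry a germline Thbs1 knockout allele, on that same high-fat diet. Each library pooled cells from 2 mice, so there was 1 sample per group and no replicate check of diet or genotype. Muscle was digested with collagenase and dead cells were removed before capture, and the central tendon and rib attachments were left out. The libraries held 4132 barcodes and 34312860 UMIs (WT CD), 3774 barcodes and 31967976 UMIs (WT HFD) and 4369 barcodes and 36478779 UMIs (KO HFD). Median UMIs per barcode were 7632.5, 8041.5 and 7554 in the same order, and 16 barcode sequences occurred in more than 1 library.

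Transcripts of Thbs1, which encodes the matrix protein thrombospondin 1, were counted in every library, at 136 CPM (a gene's UMIs scaled to the total UMIs of the cells summed) in WT CD, 202 in WT HFD and 163 in KO HFD. In FAP-like cells the Thbs1 level was 194, 232 and 226 CPM. A 3′ count may lie outside the disrupted part of the gene, so these values do not check the genotype label.

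Integrins are heterodimers of 1 alpha and 1 beta chain that span the plasma membrane. Their outer domains bind matrix proteins such as collagens, laminins and fibronectin, and the short tail of the beta chain binds talin and kindlin, which tie the receptor to actin. Dimers that hold Itgav can also pull on latent TGF-β and release the active growth factor, and this family is known in muscle both for anchoring myofibers to laminin and for mechanosensing and matrix deposition by fibroblasts.

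By the GENCODE annotation of GRCm38, all 10 are protein-coding genes. Among the alpha subunits, Itga1 lies at chr13:114953096-115101964 (minus strand), Itga5 at chr15:103344286-103366763 (minus), Itga7 at chr10:128933818-128958282 (plus), Itga8 at chr2:12106632-12301922 (minus), Itga11 at chr9:62677826-62783982 (plus) and Itgav at chr2:83724397-83806916 (plus). Among the beta subunits, Itgb1 lies at chr8:128685654-128733200 (plus), Itgb3 at chr11:104608000-104670476 (plus), Itgb5 at chr16:33829665-33949338 (plus) and Itgb8 at chr12:119158022-119238802 (minus). Exons of Itga1 overlap Gm49395 on the same strand, so UMIs of the pair could be split or dropped. Exons of Itga7, Itga8 and Itgav overlap Mettl7b, E030013I19Rik and Gm13684 on the opposite strand.

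RefSeq promoter sequence (GRCm38.p6) was found for 8 of the 10 genes, and 7 were searched for motifs in the 250 bases before the start, or for Itga11 in 221, since its stretch stops at the GENCODE start, 29 bases short of the RefSeq start. Promoters are shown for 3 alpha subunits whose transcripts, described further on, were highest in different cells: Itga1 (mural and endothelial-like cells), Itga8 (MuSC-like cells among the classes tested) and Itga11 (FAP-like cells among them). Capitals mark the E-box letters CANNTG, which read the same on both strands.
Itga1, chr13:115101965-115102214, minus strand: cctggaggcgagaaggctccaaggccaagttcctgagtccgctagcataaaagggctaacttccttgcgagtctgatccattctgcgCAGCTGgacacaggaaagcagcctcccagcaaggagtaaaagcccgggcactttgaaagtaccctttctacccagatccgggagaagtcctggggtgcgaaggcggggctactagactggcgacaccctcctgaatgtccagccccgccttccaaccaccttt
Itga8, chr2:12301945-12302194, minus strand: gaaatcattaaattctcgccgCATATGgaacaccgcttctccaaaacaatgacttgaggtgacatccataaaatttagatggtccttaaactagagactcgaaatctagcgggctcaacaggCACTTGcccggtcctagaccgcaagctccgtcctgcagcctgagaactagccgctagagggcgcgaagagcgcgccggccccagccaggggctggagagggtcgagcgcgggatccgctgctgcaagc
Itga11, chr9:62677605-62677825, plus strand: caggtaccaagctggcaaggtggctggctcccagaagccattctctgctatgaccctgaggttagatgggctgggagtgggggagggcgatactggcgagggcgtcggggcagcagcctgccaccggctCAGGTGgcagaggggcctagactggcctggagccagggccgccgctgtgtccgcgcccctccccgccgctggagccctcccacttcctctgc
The E-box began 163 bases before the RefSeq start of Itga1 and 121 before that of Itga11, and the Itga8 promoter held 2, at 229 and 128 bases. The letters were found in 5 of the 7 promoters searched and in 66.2% of 32851 RefSeq promoters of 250 bases. The AP-1 letters TGANTCA and the CArG box were found in none of the 7, against 6.75% and 1.47% of all promoters.

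Cells were assigned one by one to classes from UMIs of marker genes that included no integrin. The FAP-like class (fibro-adipogenic progenitors, the mesenchymal cells that lay down muscle matrix) held 6687 of 12275 cells, with 2242 in WT CD, 1999 in WT HFD and 2446 in KO HFD. All 4 FAP markers (Pdgfra, Dcn, Osr1 and Dpt) had UMIs there, at a summed 17204 CPM. The other classes with at least 20 cells in every library were MuSC-like (muscle stem cells, 795 cells), endothelial-like (820), lymphatic-like (244), Schwann-like (91), monocyte or macrophage-like (1187), mesothelial-like (142), T or NK cell-like (113) and B cell-like (607). Mural cell-like cells numbered 54 and tenocyte-like cells 28, and these small classes are given as levels with no test. No cluster carried the tenocyte name, so the 28 tenocyte-like cells could not be checked against clusters. In them the 4 FAP markers summed to 32944, 24826 and 29860 CPM (WT CD, WT HFD and KO HFD), and the tenocyte markers to 7197, 7829 and 5169 CPM. FAP-like cells had 17945, 16174 and 17416 CPM of the FAP markers and 919, 921 and 771 CPM of the tenocyte markers. Since the gate chose cells by these markers, the sums do not show whether tenocyte-like cells are separate from FAP-like cells, which was not tested. A further 1199 cells were left without a class, and 580 cells lay near the boundary between classes. The share of gated cells that also lay in a cluster of the same name was 97.5% for FAP-like cells, 85.1% for endothelial-like cells and 76.2% for monocyte or macrophage-like cells. The clusters were named by the same markers as the gates, so these shares are not an independent check.

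Across the 9 tested classes, each member was compared between FAP-like cells and each other class on UMIs summed per class and library, with the library as a block (edgeR's quasi-likelihood test, Benjamini-Hochberg adjusted over 10960 genes, threshold 0.05). Itga11 and Itgb5 were higher in FAP-like cells than in all 8 other classes. Against MuSC-like cells, 8 members were higher and 2 lower in FAP-like cells, where 39.7% and 17.1% of all genes were. Against endothelial-like cells, 5 were higher and 2 lower (26.8% and 28.4% of all genes), and against Schwann-like cells 3 were higher and 4 lower (11.5% and 13.7%). Against lymphatic-like cells the counts were 2 and 2 (18.7% and 19.8%), and against mesothelial-like cells 6 and 1 (13.9% and 18.7%). With 1 library left out, 2 to 3 members in all were called against lymphatic-like cells and 4 to 5 against mesothelial-like cells. Against the leukocyte classes, FAP-like cells had higher levels of 9 members than monocyte or macrophage-like cells (47.9% of all genes), 6 than T or NK cell-like cells (31.4%) and 10 than B cell-like cells (53.9%), and lower levels of 0 in each (22.5%, 15.2% and 18.2% of all genes). The median log2 difference of the members was 3.02 against MuSC-like cells, where that of all genes was 0.41, and 2.41 against endothelial-like cells, where that of all genes was -0.01. It was -0.46 against Schwann-like cells, beside 0.05 for all genes.

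The scaling of the sums shifted all genes together. With trimmed-mean (TMM) factors in place of total UMIs, the median log2 difference of all genes moved by -0.29 against MuSC-like, -0.32 against monocyte or macrophage-like, -0.51 against B cell-like and 0.26 against Schwann-like cells. The share of calls that were higher in FAP-like cells went from 69.9% to 54.1%, from 68.1% to 53.1%, from 74.8% to 56.5% and from 45.7% to 59.9% in the same order. With DESeq2's size factors it went from 67.3% to 55.7% against T or NK cell-like cells and from 68.1% to 57.5% against monocyte or macrophage-like cells. Under TMM the members' counts were 6 higher and 2 lower against MuSC-like, 8 and 0 against monocyte or macrophage-like, 10 and 0 against B cell-like and 3 and 3 against Schwann-like cells. Of the 10960 genes, TMM called 3221 higher and 2732 lower against MuSC-like and 4005 and 3543 against monocyte or macrophage-like cells. Against B cell-like cells it called 4208 and 3244, and against Schwann-like cells 1704 and 1141. The members' counts were 4 and 1 against lymphatic-like cells (3 and 1 with DESeq2), 6 and 2 against endothelial-like, 6 and 0 against mesothelial-like and 6 and 0 against T or NK cell-like cells. Over all genes they were 2305 and 1878 against lymphatic-like cells (2213 and 1963 with DESeq2) and 3283 and 2758 against endothelial-like cells. Against mesothelial-like cells they were 1859 and 1753, and against T or NK cell-like cells 3244 and 1761.

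**Figure D1:**
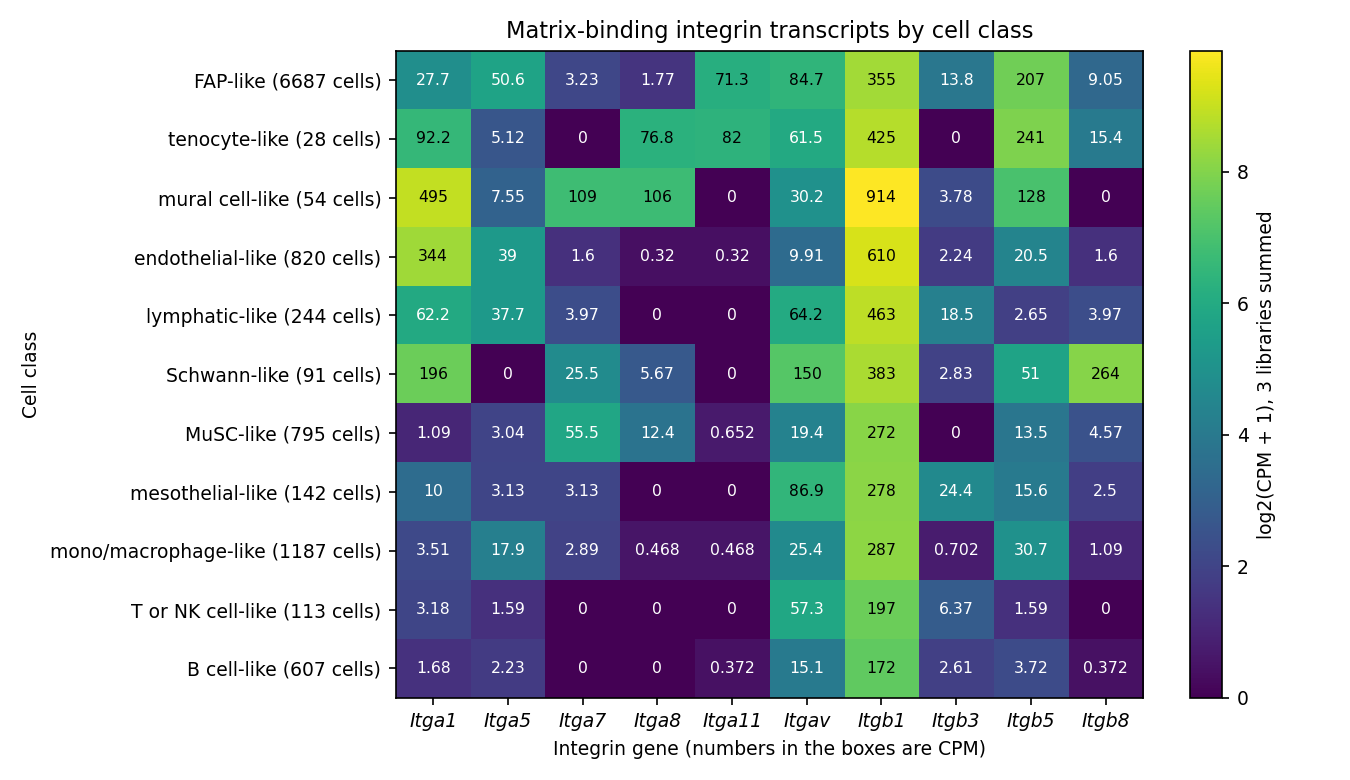
Level of the 10 integrin genes (columns) in 11 cell classes (rows), with the UMIs of the 3 libraries summed. Colour shows log2(CPM + 1) and the number in each box the CPM. Itgb8 is highest in Schwann-like cells, Itgb5 and Itga11 in tenocyte-like and FAP-like cells, and Itga8 in mural cell-like and tenocyte-like cells, and Itgb1 is found in every class.

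Among the collagen receptors, Itga11, the alpha chain of a receptor for fibrillar collagens that is typical of fibroblasts, was close to confined to FAP-like cells, which held 97.6% of its UMIs. Its level in FAP-like cells was 67.0 CPM in WT CD, 77.5 in WT HFD and 69.9 in KO HFD. The libraries did not overlap with those of any other tested class, where the highest value was 1.05 CPM, in monocyte or macrophage-like cells of WT CD. The log2 difference from that class was 7.14 ± 0.31 (SE; edgeR adjusted p = 4.3e-21). In 4 tested classes Itga11 had no UMI in any library, so that FAP-like cells were at least 38.0-fold higher than mesothelial-like, 35.9-fold higher than lymphatic-like, 14.9-fold higher than T or NK cell-like and 8.39-fold higher than Schwann-like cells, each set against 3 UMIs over the class. In FAP-like cells 41.8% of cells had an Itga11 UMI, and 18.7% after every cell was thinned to 3000 UMIs. The share in B cell-like cells, which should lack the gene, was 0.329%, and 0% after thinning (median depths of 8701 and 7626 UMIs). The 28 tenocyte-like cells had 61.1, 86.9 and 136 CPM in the same order, a range that overlapped with that of FAP-like cells.

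Itga1, the alpha chain of a collagen receptor of vessel walls with a preference for basement membrane collagen, had its highest levels in vascular classes. The 54 mural cell-like cells, which wrap small vessels, had 283 CPM in WT CD, 580 in WT HFD and 536 in KO HFD. Endothelial-like cells had 352, 393 and 267 CPM, and the 2 ranges overlapped. In FAP-like cells the level was 24.4, 28.7 and 29.9 CPM, below every endothelial-like library, with a log2 difference of -3.62 ± 0.25 (SE; edgeR adjusted p = 9.1e-11). Schwann-like cells, the glia of peripheral nerve, were also higher than FAP-like cells, by 2.81 ± 0.42 on the log2 scale (edgeR adjusted p = 2.0e-05), with 150, 319 and 113 CPM from 16, 39 and 14 UMIs. Lymphatic-like cells (44.9, 47.6 and 103 CPM) were higher than FAP-like cells by 1.17 ± 0.35 (edgeR adjusted p = 0.011), a call lost without the WT CD library, without the KO HFD library and with DESeq2. MuSC-like cells had 5 Itga1 UMIs in all. An Itga1 UMI was seen in 57.4% of endothelial-like cells, 18.5% of FAP-like cells and 0.988% of B cell-like cells, although endothelial-like cells were shallower (median 3334 UMIs). At 3000 UMIs per cell the shares were 54.3%, 7.88% and 0.176%.

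Itga7 encodes the alpha chain of the main laminin receptor of skeletal muscle. MuSC-like cells had 39.3, 65.0 and 59.3 CPM over the libraries, and mural cell-like cells 166, 72.5 and 111 CPM from few cells. The FAP-like level was 4.06, 1.73 and 3.77 CPM, lower than the MuSC-like level by 4.08 ± 0.27 on the log2 scale (SE; edgeR adjusted p = 5.1e-14). Schwann-like cells had 46.9, 16.3 and 16.1 CPM and were also higher than FAP-like cells, by 2.99 ± 0.85 (edgeR adjusted p = 0.0082), a call that was lost without the WT CD library. B cell-like cells had no Itga7 UMI in 607 cells, which allows a share of cells with a UMI of up to 0.494% and sets no limit on cells that express the gene, and FAP-like cells were at least 5.78-fold higher. A UMI of Itga7 was seen in 24.7% of MuSC-like cells and 2.66% of FAP-like cells, and in 13.4% and 1.01% at 3000 UMIs.

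The remaining alpha chains bind ligands with the tripeptide RGD. Itga5, whose dimer with Itgb1 is the classical fibronectin receptor, was at 45.4, 56.0 and 50.7 CPM in FAP-like cells. Endothelial-like (41.7, 40.8 and 33.2 CPM) and lymphatic-like cells (33.7, 39.4 and 38.2 CPM) lay below every FAP-like library. These differences were not called (log2 0.38 ± 0.18, edgeR adjusted p = 0.064, and 0.45 ± 0.22, edgeR adjusted p = 0.11). The first was called with doublets removed, a stricter gate, TMM, DESeq2, without WT CD and with only the 2 classes fitted, and the second with TMM. The FAP-like level was higher than in monocyte or macrophage-like cells (14.4, 18.0 and 19.6 CPM) by 1.53 ± 0.15 and than in MuSC-like cells by 4.03 ± 0.28 (edgeR adjusted p = 1.1e-11 and 4.0e-16). The Schwann-like class had no Itga5 UMI, and FAP-like cells were at least 5.95-fold higher.

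Itga8, the alpha chain of a receptor for nephronectin that is known from smooth muscle and kidney, had 255 UMIs in the series. Mural cell-like cells had 66.5, 186 and 55.5 CPM and tenocyte-like cells 107, 43.4 and 204 CPM, both from few cells. Among tested classes MuSC-like cells had the highest level, at 11.5, 13.3 and 12.4 CPM, above FAP-like cells (1.88, 1.84 and 1.61 CPM) by 2.78 ± 0.39 on the log2 scale (SE; edgeR adjusted p = 1.5e-07).

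Itgav, which pairs with several beta chains, was broadly present. Schwann-like cells had 131, 155 and 161 CPM, all above the FAP-like libraries at 81.8, 90.0 and 82.8 CPM, and the log2 difference was -0.82 ± 0.25 (edgeR adjusted p = 0.010). That call was lost with TMM, without the WT HFD library and without the KO HFD library. Mesothelial-like cells (90.0, 90.5 and 78.7 CPM) overlapped with FAP-like cells, and the log2 difference was -0.02 ± 0.18 (edgeR adjusted p = 0.96). Endothelial-like cells, at 12.7, 4.34 and 13.7 CPM, were lower than FAP-like cells by 3.08 ± 0.24 (edgeR adjusted p = 3.1e-15). B cell-like cells had an Itgav UMI in 11.5% of cells against 48.9% of FAP-like cells, and 4.06% against 21.8% at 3000 UMIs.

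Of the beta chains, Itgb1, the partner of most collagen and laminin binding alpha chains, was found in every class tested. Mural cell-like cells had 648, 1088 and 906 CPM, and endothelial-like cells 588, 622 and 624 CPM, with no overlap of their libraries. Among tested classes lymphatic-like (382, 518 and 437 CPM), Schwann-like (347, 425 and 371 CPM) and FAP-like cells (325, 390 and 354 CPM) followed, and their ranges overlapped in that order. The few tenocyte-like cells had 413, 443 and 340 CPM. The endothelial-like level was above the FAP-like level by 0.78 ± 0.12 on the log2 scale (SE; edgeR adjusted p = 5.8e-07). Itgb1 was also called lower in FAP-like than in lymphatic-like cells. Against that class 2 members were called lower, and 1 with TMM or DESeq2. The log2 difference between FAP-like and Schwann-like cells was -0.10 ± 0.16 (edgeR adjusted p = 0.74), and it turned positive with TMM and with DESeq2. FAP-like cells were above MuSC-like cells by 0.38 ± 0.12 and above monocyte or macrophage-like cells by 0.34 ± 0.12 (edgeR adjusted p = 0.0091 and 0.011), close to the median of all genes in those comparisons (0.41 and 0.38), and with TMM these differences were 0.09 and 0.02 and were not called. Both calls were also lost without the KO HFD library. A UMI of Itgb1 was seen in 89.7% of FAP-like cells and 51.9% of B cell-like cells, and in 62.5% and 32.5% at 3000 UMIs.

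Itgb5, which pairs with Itgav to bind vitronectin, had 92.6% of its UMIs in FAP-like cells, at 208, 216 and 199 CPM. The 28 tenocyte-like cells had 241 CPM over the libraries summed, and the 54 mural cell-like cells 33.3, 145 and 166 CPM from 2, 14 and 18 UMIs. Every library of every other tested class lay lower, and the highest of them was 80.7 CPM, in Schwann-like cells of KO HFD. The log2 difference was 2.03 ± 0.38 from Schwann-like cells and 2.81 ± 0.19 from monocyte or macrophage-like cells (edgeR adjusted p = 7.9e-05 and 2.3e-14). It was 3.34 ± 0.24 from endothelial-like and 3.92 ± 0.25 from MuSC-like cells (edgeR adjusted p = 2.6e-13 and 9.6e-15). An Itgb5 UMI was seen in 77.1% of FAP-like cells and in 2.14% of B cell-like cells.

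Itgb3, the other well-known vitronectin receptor chain, which platelets also carry, was low in every class. Mesothelial-like cells, the lining of the muscle surface, had 31.9, 24.2 and 19.1 CPM, lymphatic-like cells 16.8, 21.7 and 14.3 CPM, and FAP-like cells 11.99, 16.1 and 13.4 CPM. The mesothelial-like libraries all lay above the FAP-like ones, by 0.80 ± 0.29 on the log2 scale (SE; edgeR adjusted p = 0.027), and this call was lost under 7 of the 11 alternatives tried, among them the 3 that each left out 1 library. MuSC-like cells had no Itgb3 UMI in 795 cells, which allows a share of cells with a UMI of up to 0.377%, and FAP-like cells were at least 21.1-fold higher.

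Itgb8, the Itgav partner best known for activating latent TGF-β, was highest in Schwann-like cells, at 281, 245 and 266 CPM from 30, 30 and 33 UMIs. FAP-like cells had 9.01, 9.20 and 8.96 CPM, and the log2 difference was -4.86 ± 0.29 (edgeR adjusted p = 1.5e-17). A UMI was seen in 50.5% of Schwann-like cells, 7.40% of FAP-like cells and 0.329% of B cell-like cells (44.3%, 2.66% and 0.176% at 3000 UMIs). FAP-like cells, being many, still held 74.9% of all Itgb8 UMIs and Schwann-like cells 12.6%. Of the 5 monocyte and macrophage markers, 4 had UMIs in the Schwann-like class, at a summed 1780 CPM that was nearly all Lyz2, with Adgre1 at 0. The Itgb8 level in monocyte or macrophage-like cells themselves was 1.05, 0.228 and 1.80 CPM.

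**Figure D2:**
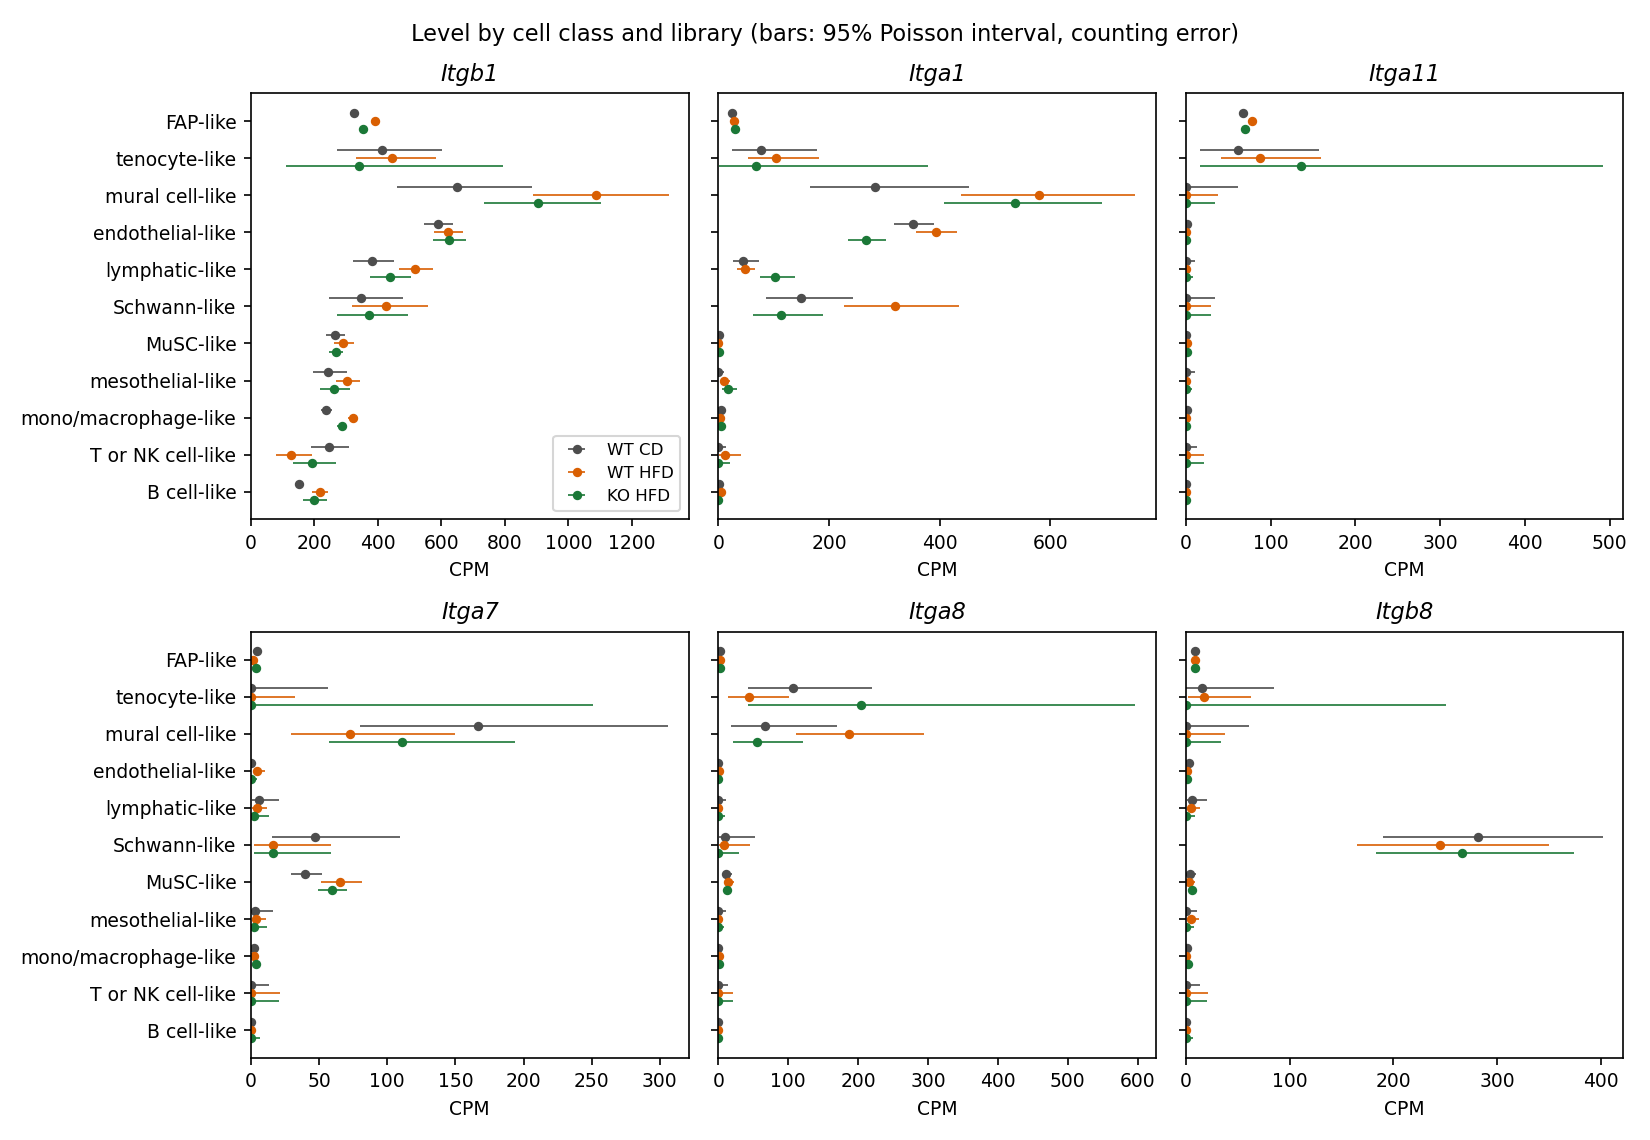
Levels of 6 integrin genes (panels) in 11 cell classes, in CPM of summed UMIs with exact 95% Poisson intervals that cover counting error only, with 1 point per library. For Itgb8 the 3 Schwann-like points lie above all other points, and for Itga11 the FAP-like points overlap only with those of the small tenocyte-like class.

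Pairs of chains that can form a dimer were seen together in single cells. In FAP-like cells, 39.8% had UMIs of both Itgav and Itgb5, 39.0% of both Itga11 and Itgb1, 28.1% of both Itga5 and Itgb1, and 6.37% of both Itgav and Itgb3. Itgb5 was seen in 81.3% of the FAP-like cells with Itgav and 73.0% of those without, but the former were also deeper (medians of 9461 and 7996 UMIs). Among 91 Schwann-like cells, 21 had both Itgav and Itgb8, and Itgb8 was seen in 53.8% of those with Itgav and 48.1% of those without. In endothelial-like cells 49.5% had both Itga1 and Itgb1, and in MuSC-like cells 19.9% had both Itga7 and Itgb1. The part of depth in these shares was not tested.

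Clusters of all 12275 cells, which also take in cells that the gates left out, gave several clusters each with MuSC-like or monocyte or macrophage-like markers. They were built from the same cells, so their levels are given without a test. Of the MuSC-like clusters, one of 34 cells led by Edn3, Sox9 and Peg3 had Itgb5 at 197, 158 and 158 CPM, where the other, of 1181 cells, had 22.3, 11.04 and 11.3 CPM. Itgav was also higher in the small cluster, at 71.7, 63.3 and 95.7 CPM against 23.9, 20.9 and 18.3 CPM. For both genes the small cluster lay nearer to the FAP-like levels given above than to the other MuSC-like cluster. Whether its cells held RNA of FAP-like cells was not tested. Among monocyte or macrophage-like clusters, the one led by Folr2 and C1qa (resident macrophage genes) had Itgb5 at 41.0, 61.4 and 53.5 CPM, and the one led by Saa3 and Alox15 at 0, 5.69 and 0 CPM.

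Within FAP-like cells, states were gated on short marker sets without integrins, and 6 states had at least 20 cells in every library. They are called by their markers. Of the 6687 FAP-like cells, 3006 had no state and 2105 lay near a boundary, and whether the states are separate types was not tested. Itga7 and Itga8 were too low to be tested. All 8 members tested differed over the 6 states (edgeR quasi-likelihood F test, Benjamini-Hochberg adjusted over 10131 genes), and 47.6% of all genes did.

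Itga1 took the opposite side to Itga11 and Itga5 in a pair of these states. In the Fmod Sfrp2 Tnmd state, named for the matrix protein fibromodulin and the tendon gene Tnmd, Itga1 was at 70.8, 94.96 and 118 CPM in the order used throughout (control diet, high-fat diet, knockout on high-fat diet), and in the Dpp4 Sema3c state at 4.68, 7.73 and 11.98 CPM. Against the mean of the other states, the log2 difference of Itga1 was 2.07 ± 0.15 in the former and -2.21 ± 0.17 in the latter (SE; edgeR adjusted p = 1.7e-15 and 7.5e-15). Itga11 was at 102, 103 and 103 CPM in the Dpp4 Sema3c state and at 29.1, 51.6 and 39.6 CPM in the Fmod Sfrp2 Tnmd state, and the differences from the other states were 0.81 ± 0.08 and -0.83 ± 0.15 (edgeR adjusted p = 3.2e-11 and 2.7e-05). Dpp4 marks fibroblast progenitors in several tissues. Itga5 showed the same order, at 54.1, 74.3 and 66.5 CPM in the Dpp4 Sema3c state against 19.98, 20.6 and 26.8 CPM in the Fmod Sfrp2 Tnmd state (0.76 ± 0.10 and -1.01 ± 0.20, edgeR adjusted p = 4.8e-08 and 0.00011). In the Sfrp4 Spon2 state Itga5 was also high, at 67.8, 68.0 and 58.5 CPM (0.75 ± 0.12, edgeR adjusted p = 8.0e-06).

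Among beta chains, Itgb3 was at 30.7, 25.9 and 22.2 CPM in the Dpp4 Sema3c state. This was above the mean of the other states by 1.78 ± 0.23 on the log2 scale (edgeR adjusted p = 1.4e-07). In the Sfrp4 Spon2 state Itgb3 was at 8.06, 26.0 and 23.2 CPM, slightly above the Dpp4 Sema3c state in WT HFD and KO HFD. In the Fmod Sfrp2 Tnmd state it had 0, 1 and 2 UMIs. Itgb5 had the reverse order, at 289, 339 and 293 CPM in the Fmod Sfrp2 Tnmd state (0.54 ± 0.08, edgeR adjusted p = 5.4e-07). Its difference in the Dpp4 Sema3c state was -0.16 ± 0.07 (edgeR adjusted p = 0.056). In the Dio2 Pthlh Col8a1 state Itgb5 was at 320, 264 and 269 CPM and Itgb1 at 406, 463 and 410 CPM (0.42 ± 0.07 and 0.26 ± 0.06, edgeR adjusted p = 1.8e-05 and 0.0015). Itgb8 was lower in the Dpp4 Sema3c state, at 3.64, 4.37 and 3.55 CPM from 7, 13 and 8 UMIs (-1.38 ± 0.29, edgeR adjusted p = 0.00015).

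By state, 3 members were higher and 2 lower in the Dpp4 Sema3c state, where 16.8% and 18.2% of all genes were, and 2 higher and 3 lower in the Fmod Sfrp2 Tnmd state (14.2% and 8.45%). The Gdf10 Rbp4 Penk state had 0 higher and 5 lower (7.62% and 9.36%), namely Itga1, Itga11, Itgav, Itgb1 and Itgb5, and Itgb1 there was at 257, 295 and 293 CPM. The Sfrp4 Spon2 state had 3 higher and 0 lower (7.2% and 5.65%). In it Itgav, at 123, 107 and 97.7 CPM, was above the mean of the other states by 0.39 ± 0.09 (edgeR adjusted p = 0.0011). Itgav was higher in the Fmod Sfrp2 Tnmd state of WT HFD (120 CPM) and in the Dpp4 Sema3c state of KO HFD (98.9 CPM). The Dio2 Pthlh Col8a1 state had 3 higher and 0 lower (8.74% and 3.8%), and the Cxcl14 Mme state 2 higher and 3 lower (12.4% and 9.65%). In the Cxcl14 Mme state Itga1 and Itga11 lay on the same side, both higher (0.50 ± 0.12 and 0.56 ± 0.08), and Itga5, Itgav and Itgb5 were lower. An Agt Ptx3 Has1 state of 9, 13 and 46 cells was too small for the test, and Itga5 was at 51.8, 138 and 109 CPM in it.

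**Figure D3:**
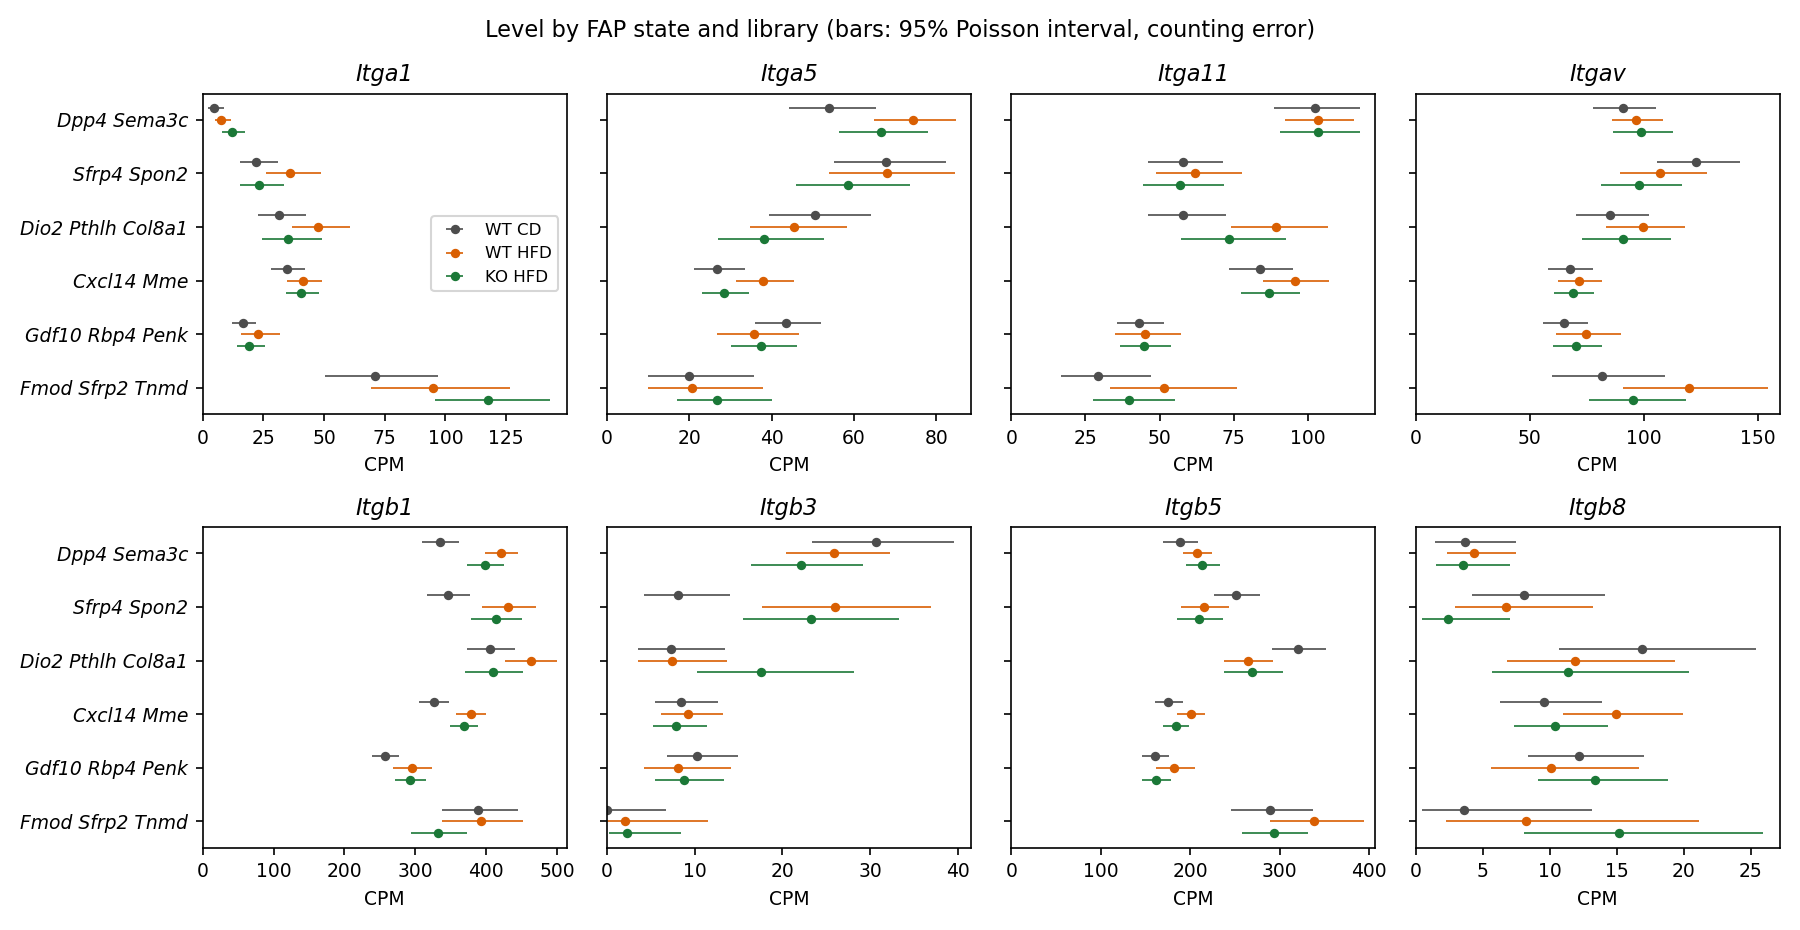
Levels of 8 integrin genes (panels) in 6 FAP states, in CPM of summed UMIs with exact 95% Poisson intervals that cover counting error only, with 1 point per library. Itga1 is highest in the Fmod Sfrp2 Tnmd state and lowest in the Dpp4 Sema3c state in all 3 libraries, and Itga11 has the opposite order in these 2 states.

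The comparison of WT HFD with WT CD asks what the high-fat diet did to these genes, and that of KO HFD with WT HFD what the loss of Thbs1 did on that diet. The 2 comparisons share the WT HFD library. With 1 library per group there was no test, and the intervals given cover counting error only. In FAP-like cells 6 of the 10 members reached 20 CPM in at least 1 library. Of these 6, 0 changed by 1.5-fold or more in WT HFD against WT CD, where 0.673% of all genes at that level were higher and 0.794% lower. In KO HFD against WT HFD it was again 0 of 6 (0.669% and 0.274% of all genes).

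Below that fold, and scaled to total UMIs, the 6 genes lay on the same side with diet. Itgb1 was at 325 CPM in WT CD, 390 in WT HFD and 354 in KO HFD, a log2 ratio of 0.27 (0.22 to 0.31) for WT HFD over WT CD and -0.14 (-0.19 to -0.09) for KO HFD over WT HFD. Itga5 had log2 ratios of 0.30 (0.17 to 0.43) and -0.14, and Itga11 of 0.21 (0.10 to 0.32) and -0.15. Itgb1, Itga5 and Itga11 were thus each highest in the WT HFD library and lowest in WT CD. The states made up different shares of FAP-like cells in each library. The Dpp4 Sema3c state, high in Itga5 and Itga11, held 7.76% in WT CD, 13.6% in WT HFD and 8.67% in KO HFD, and the Gdf10 Rbp4 Penk state, low in Itgb1 and Itga11, held 14.3%, 8.80% and 11.7%. In the cells of the 6 tested states alone, which leaves out the 3006 FAP-like cells with no state and the Agt Ptx3 Has1 state, the log2 ratio of WT HFD over WT CD was 0.22 for Itga5, 0.28 for Itgb1 and 0.32 for Itga11. With these 6 states also weighted alike in each library it was 0.10, 0.21 and 0.26. For KO HFD over WT HFD the values were -0.29, -0.12 and -0.20 in the cells of these states and -0.14, -0.10 and -0.14 with equal weights. Itga1 was at 0.24 (0.06 to 0.41) with diet and 0.06 (-0.11 to 0.23) in KO HFD against WT HFD, and its diet ratio was 0.38 in the cells of the 6 states and 0.47 with these weighted alike. Itgav was at 0.14 (0.04 to 0.24) and -0.12, and Itgb5 at 0.06 (-0.01 to 0.12) and -0.12. Scaled to total UMIs, all 6 ratios were positive for WT HFD over WT CD (with TMM factors Itgb5 was at -0.014 and the other 5 between 0.067 and 0.23), 5 of them with an interval above 0, as had 40% of all genes at this level (10.3% had one below 0). For KO HFD over WT HFD, 5 had an interval below 0, as had 26.8% of all genes (13.2% had one above 0). With TMM factors 3 of the 6 kept an interval above 0 with diet (Itgb1, Itga5 and Itga11) and 3 an interval below 0 for KO HFD over WT HFD (Itgb1, Itgb5 and Itga11). The shares of all genes with such intervals, here and for the lists below, are for total UMIs. None is given with TMM factors. The median log2 ratio of the 6 was 0.22 with diet beside 0.09 for all genes, and -0.13 for KO HFD over WT HFD beside -0.05.

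Below 20 CPM, Itgb3 was at 11.99, 16.1 and 13.4 CPM in FAP-like cells, a log2 ratio of 0.42 (0.18 to 0.67) for WT HFD over WT CD. It was 0.30 in the cells of the 6 states and 0.28 with these weighted alike, and by state Itgb3 was at 30.7 and 25.9 CPM in WT CD and WT HFD in the Dpp4 Sema3c state and at 8.06 and 26.0 CPM, from 12 and 31 UMIs, in the Sfrp4 Spon2 state. Itga7 was at 4.06, 1.73 and 3.77 CPM from 82, 33 and 82 UMIs, a log2 ratio of -1.23 (-1.86 to -0.63) with diet and 1.12 for KO HFD over WT HFD. Itga8 and Itgb8 stayed within 1.61 to 1.88 and 8.96 to 9.20 CPM.

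Markers of other cells moved between the FAP-like libraries too. The 4 MuSC markers, all with UMIs and led by Myf5, summed to 3.91 CPM in WT CD, 2.26 in WT HFD and 4.27 in KO HFD, and the 6 mural markers, all with UMIs, to 29.0, 19.0 and 27.4 CPM. Both were lowest in WT HFD, as was Itga7, and their part in the Itga7 values was not tested. The 5 monocyte and macrophage markers, led by Lyz2, summed to 41.4, 108 and 44.3 CPM, and the 4 erythroid markers to 2.72, 46.2 and 3.54 CPM, both highest in WT HFD as was Itgb1, and their part in the Itgb1 values was not tested. Itgb1 in monocyte or macrophage-like cells was at 238, 321 and 285 CPM, below the FAP-like level in each library.

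In 3 other classes with enough cells the UMIs were fewer, and more of all genes passed 1.5-fold. In endothelial-like cells 4 members reached 20 CPM, and 0 of them passed 1.5-fold with diet (7.01% of all genes higher and 5.11% lower) or for KO HFD against WT HFD (5.4% and 7.62%). Itga1 there was at 352, 393 and 267 CPM, lowest in KO HFD, with a log2 ratio of KO HFD over WT HFD of -0.56 (-0.79 to -0.33). The 6 mural markers, all with UMIs in endothelial-like cells and led by Rgs5, summed to 119, 357 and 67.6 CPM there, also highest in WT HFD and lowest in KO HFD, and their part in the Itga1 values was not tested. In MuSC-like cells 1 of 4 members was past 1.5-fold higher and 1 lower in WT HFD against WT CD (18.2% and 4.31% of all genes), and 0 of 3 either way in KO HFD against WT HFD (3.01% and 6%). The former was Itga7, at 39.3, 65.0 and 59.3 CPM, with a log2 ratio of 0.73 (0.19 to 1.28) for WT HFD over WT CD. In MuSC-like cells the 6 mural markers, all with UMIs and led by Acta2, summed to 251, 467 and 248 CPM, and their part in the Itga7 values was not tested. The latter was Itgb5, at 22.1, 10.0 and 10.6 CPM from 27, 12 and 23 UMIs, with a log2 ratio of -1.14 (-2.26 to -0.11). The small Sox9 cluster high in Itgb5 held 12, 7 and 15 cells, and its part was not tested. In both genes KO HFD lay closer to WT HFD than to WT CD, but it differs in genotype and is no replicate of the diet. In monocyte or macrophage-like cells 1 of 3 members was past 1.5-fold higher and 0 lower in WT HFD against WT CD (6.74% and 3.88% of all genes), and 0 of 3 either way in KO HFD against WT HFD (2.16% and 3.09%). That gene was Itgb5, at 18.2, 34.4 and 34.1 CPM from 52, 151 and 190 UMIs, with a log2 ratio of 0.92 (0.45 to 1.40). Of the 1187 cells of this class, 904 lay in clusters of the same name, 20 in unnamed clusters and the others in clusters of other names. A dendritic cell-like cluster held 431 cells (139, 98 and 194), where the gate put 19 cells in that class, and its part was not tested. The clusters of the monocyte or macrophage name differed in Itgb5 and in number. The Folr2 cluster, high in Itgb5, held 145, 293 and 299 cells and the Saa3 cluster, low in it, 8, 56 and 14 cells, and their part in the Itgb5 values was not tested.

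**Figure D4:**
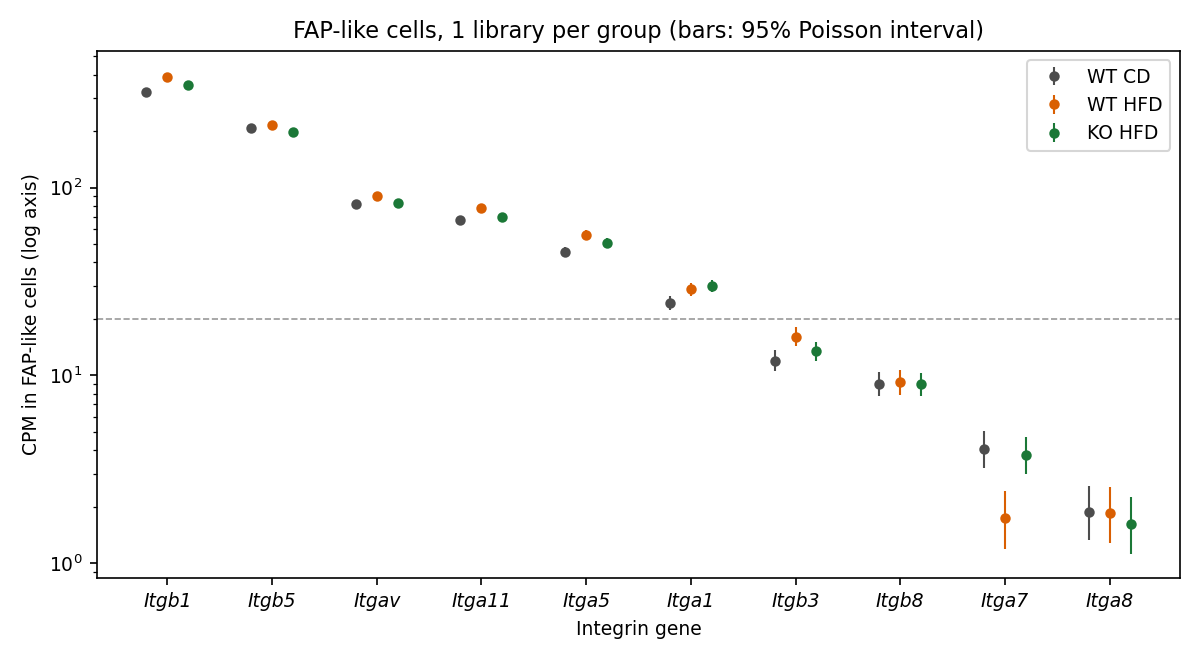
Levels of the integrin genes in FAP-like cells, by library, in CPM of summed UMIs on a log axis, with exact 95% Poisson intervals that cover counting error only. The dashed line marks 20 CPM, the lowest level at which a change was called. The largest change is that of Itga7, at 4.06, 1.73 and 3.77 CPM.

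Other genes of the pathway were read from lists of further integrin subunits, cytoplasmic linkers, matrix ligands and latent TGF-β partners. Of the 16 further integrin subunits only Itga9, a receptor chain for tenascin and other ligands, reached 20 CPM in FAP-like cells, at 25.8, 32.1 and 26.2 CPM. The next highest in FAP-like cells over all libraries were Itga2b (8.86 CPM) and Itga2 (5.79 CPM). Against MuSC-like cells 6 of 12 tested were higher in FAP-like cells and 1 lower (39.7% and 17.1% of all genes). Against monocyte or macrophage-like cells 3 were higher and 7 lower (47.9% and 22.5%), and the list includes leukocyte chains such as Itgam and Itgb2.

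Of the 22 linkers, which join the beta tail to actin, 15 reached 20 CPM. The highest in FAP-like cells were Fermt2 (kindlin, 234, 270 and 242 CPM), Zyx (zyxin, 112, 134 and 119 CPM) and Tln1 (talin, 99.2, 116 and 109 CPM). All 15 were higher in WT HFD than in WT CD, 14 with an interval above 0 (40% of all genes), and 11 with TMM factors. In KO HFD 14 were lower than in WT HFD, 11 with an interval below 0 (26.8% of all genes; 8 linkers with TMM factors), and 0 passed 1.5-fold either way. Their median log2 ratios, 0.23 and -0.16, lay close to those of the integrins. Against endothelial-like cells 2 of 20 linkers were higher in FAP-like cells and 11 lower (26.8% and 28.4% of all genes).

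Of the 21 matrix ligands, 16 reached 20 CPM. Col3a1 was at 2612, 3585 and 2955 CPM, Col1a1 at 940, 1026 and 1008 CPM, and Fn1 (fibronectin, the Itga5 ligand) at 757, 1093 and 1030 CPM. Past 1.5-fold were Col4a1, a basement membrane collagen, at 407 and 613 CPM in WT CD and WT HFD, and Vtn (vitronectin, the Itgb5 ligand), at 63.5 and 97.7 CPM in WT HFD and KO HFD. The change of Col4a1 was 1.505-fold, just past the limit, and with TMM factors 1.43-fold and not called. With diet 13 of the 16 ligands were higher and 3 lower, each with an interval on that side of 0 (40% and 10.3% of all genes). For KO HFD over WT HFD 2 were higher and 14 lower, 11 of these with an interval below 0 (26.8% of all genes). With TMM factors 12 ligands had an interval above 0 with diet and 3 one below. For KO HFD over WT HFD 4 were then higher and 12 lower, 11 of these with an interval below 0. Of the 19 ligands tested between classes, FAP-like cells were higher for 15 and lower for 1 against MuSC-like cells (39.7% and 17.1% of all genes), and higher for 12 and lower for 5 against endothelial-like cells (26.8% and 28.4%).

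Among the 6 latent TGF-β partners, FAP-like cells had Ltbp1 at 189, 194 and 194 CPM, Tgfb3 at 62.0, 56.6 and 59.7 CPM and Tgfb2 at 65.2, 59.1 and 53.3 CPM. With diet 2 of the 5 at 20 CPM were higher and 3 lower, 0 with an interval above 0 and 2 with one below (40% and 10.3% of all genes), at a median log2 ratio of -0.12 beside 0.09 for all genes. With TMM factors all 5 were lower, 3 with an interval below 0. For KO HFD over WT HFD 4 were higher and 1 lower, 0 with an interval above 0 and 1 with one below (13.2% and 26.8% of all genes), at a median of 0.07 beside -0.05. With TMM factors 0 had an interval above 0 and 0 one below. Over the FAP states 16 of 18 linkers, 16 of 16 ligands, 5 of 5 latent TGF-β partners and 3 of 3 further subunits tested differed, where 47.6% of all genes did.

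The genes whose level over the 9 tested classes was most like that of each member are given by Pearson's r of log2(CPM + 1), a description over 9 points that share libraries. For Itga11 they were D630033O11Rik, Stmn4 and Pi15 (r of 0.997, 0.995 and 0.992), the highest values of any member. For Itgb5 the first was Vcan (0.952), the gene of the proteoglycan versican, and for Itga7 it was Megf10 (0.965), a gene of muscle stem cells. Itgb1 was most like Papola (0.984), Nuak1 (0.983) and the endothelial gene Eng (0.978), Itga1 most like Slc35a3 (0.957), Itga5 most like Ace (0.956) and then Itga9 (0.947), and Itgb8 most like Eif1b (0.979). Itga8 was most like Acsl3 (0.972), Itgav most like Gpsm2 (0.940) and Itgb3 most like Abhd13 (0.920). Among members, Itga7 and Itga8 were the closest pair (0.90), followed by Itga1 and Itgb1 (0.87) and Itga11 and Itgb5 (0.70).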

How the data were processed

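Libraries were made with a 3′ droplet kit. The authors deposited UMI counts per gene and barcode after Cell Ranger (6.1.1 in the submitters' processing notes, 6.1.0 in the file header), with no normalization. All 12275 deposited barcodes were used, doublets included (Scrublet marked 1.26%, 1.09% and 1.33% of WT CD, WT HFD and KO HFD). The integrins, lists and markers were chosen with earlier results of these data known.

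A cell joined the class whose markers had the highest mean scaled level, if that was at least 0.2, led the next class by 0.1 and rested on 2 detected markers. CPM are UMIs of a gene scaled to the total UMIs of the cells summed. Classes and FAP states with at least 20 cells in every library were tested with edgeR 4.0.16 (R 4.3.3, limma 3.58.1) on 27 and 18 sums after its low-count filter, with the library as a block, so p-values measure the spread over 3 libraries that differ in diet or genotype. SE were derived from the F statistic. On simulated counts, compared as FAP-like against endothelial-like sums over 9414 genes, the test called 93.9% of 4-fold changes, 39.0% of 2-fold changes and 0.05% of unchanged genes. The simulation took each gene's mean over all classes, left out low-count genes and set a wider spread than was fitted to the data. These shares therefore do not give the recovery of the tests reported here. Between libraries, CPM were compared by exact conditional intervals (95%, counting error only) where 1 library had 20 CPM, and a change was called past 1.5-fold. A class at 0 was set at 3 UMIs for a lower bound. Named are all 10 members, the 3 highest of each list in FAP-like cells and those past 1.5-fold, and up to 3 of the genes most like each member. Alternatives were Leiden clusters, k-means states, doublet and quality filters, a stricter gate, no low-count filter, TMM (for the lists added after seeing the data), DESeq2 1.42.0, other denominators, the cells of the 6 FAP states alone (added after seeing the data) and with equal weights, a 5 CPM limit, only the 2 classes compared, and each library left out. Cells were analysed with scanpy 1.11.5 (Python 3.11.15). Some marker gene and cluster results for Schwann-like cells are not reported here.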

Additional observations from a re-analysis of the deposited data

Results flagged for a closer look

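In 3 cases the counting interval of a log2 ratio lay above 0 in one class and below 0 in another, with 1 library per group, so that the difference between the classes was not tested. For WT HFD over WT CD, Itga7 had a log2 ratio of 0.73 in MuSC-like cells (48 and 78 UMIs) and -1.23 in FAP-like cells (82 and 33 UMIs). For WT HFD over WT CD, Itgb5 had 0.92 in monocyte or macrophage-like cells (52 and 151 UMIs) and -1.14 in MuSC-like cells (27 and 12 UMIs). For KO HFD over WT HFD, Itgav had 1.66 in endothelial-like cells (5 and 12 UMIs) and -0.12 in FAP-like cells (1712 and 1802 UMIs), where the interval reached 0 with TMM factors (-0.18 to 0.012).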

How the results depend on the processing

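For diet and genotype, no paired analysis was possible because each group has 1 library, whereas the class and state comparisons had the library as a block. Of the counts of called members, 96 stayed within 1.5 times under the alternatives and 3 did not. With 1 library left out, the members called against mesothelial-like cells went from 7 to 4 to 5 and those against lymphatic-like cells from 4 to 2 to 3. Of the single log2 differences between classes, 778 kept their direction and call, 38 lost the call, 16 gained it and 16 changed sign, none of them called before. The cause was not tested. For Itga7 against monocyte or macrophage-like cells the values were -0.41 (Leiden clusters), -0.15 (TMM), -0.033 (DESeq2) and from -0.15 to 0.39 with 1 library left out. Against mesothelial-like cells Itga7 was at -0.094 (Leiden clusters), -0.059 (doublets removed), -0.020 (quality filter), -0.14 (only the 2 classes) and from -0.31 to 0.68 with 1 library left out. Itga7 against lymphatic-like cells went from -0.68 to 0.024 with 1 library left out. Itgb1 against Schwann-like cells was at 0.17 with TMM and 0.077 with DESeq2. Itgav against mesothelial-like cells was at 0.095 with TMM, 0.052 with DESeq2 and from -0.058 to 0.013 with 1 library left out. Itga8 fell under the low-count filter without WT HFD. In FAP-like cells the count past 1.5-fold was 0 in both comparisons under all alternatives tried. In the cells of the 6 FAP states alone, an alternative chosen after seeing the data, the log2 ratio of WT HFD over WT CD was 0.38 for Itga1, 0.22 for Itga5 and 0.28 for Itgb1, and with these states also weighted alike 0.47, 0.10 and 0.21. Depth limits changes under 2-fold, classes of 28 to 142 cells and members under 20 CPM.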
